A study of Homo sapiens with 18 samples.

Results

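Gene expression at day 18 of neuronal differentiation was compared between SH-SY5Y cells that received ZNHIT3 with the C14R substitution and cells that received wild-type ZNHIT3. SH-SY5Y is an established human neuroblastoma line that takes on neuron-like properties in culture. Every group carried a lentiviral construct made from the FUGW plasmid and delivered a day after plating: ZNHIT3-WT (WT), ZNHIT3-C14R (C14R) or a ZNHIT3 deletion, and no group without a construct was analysed here. The labels do not say whether the cells kept their own ZNHIT3 gene, or whether the libraries of a group came from separate cultures. Differentiation was in serum-free medium with BDNF, potassium chloride, dibutyryl cyclic AMP and all-trans retinoic acid. RNA was sequenced after depletion of ribosomal RNA, with 3 libraries in each of 6 groups (3 constructs at day 0 or day 18). The comparison uses 6 of the 18 libraries and covers the 13785 of 26372 gene symbols with a mean of at least 1 FPKM (mapped fragments corrected for the length of the transcript and the size of the library) over all libraries. Unless stated, tests took the spread between libraries from all 18, so the day 0 and deletion libraries outside the comparison enter the p-values. Where nothing shows separate cultures, p-values measure the spread between libraries only.

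ZNHIT3 is a small protein with a HIT-type zinc finger, a fold in which cysteines and histidines hold zinc. Together with NUFIP1 and the R2TP complex it takes part in the assembly of box C/D small nucleolar ribonucleoproteins (snoRNPs), whose RNAs guide the methylation of ribosomal RNA. Box H/ACA snoRNPs, a separate class, guide the conversion of uridine to pseudouridine. During differentiation, neuroblastoma cells leave the cell cycle, so genes of DNA replication and mitosis are read here beside those of snoRNPs, ribosomes, stress responses and neuronal identity.

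C14R replicate 1 stood apart from the other 5 libraries. Its FPKM summed to 553540, against 708680 to 989590 in the others. It was the highest of the 6 libraries in 4152 of the genes tested and the lowest in 4163, while each other library was highest in 1635 to 2364 and lowest in 1461 to 2620. Its departures followed GC content. Across genes, the correlation of its departure from the mean of the 6 libraries with transcript GC content was r = -0.56, against -0.23 to 0.40 in the others. In the bin of genes with the lowest GC content (median 36.9%) its median departure was 0.11 on the log2(FPKM + 1) scale, and in the highest bin (median 63.8%) it was -0.24. The share of this departure in the results was not tested beyond the values given below, in which results are shown with and without this library and after each library's trend with GC content was removed.

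**Figure D1:**
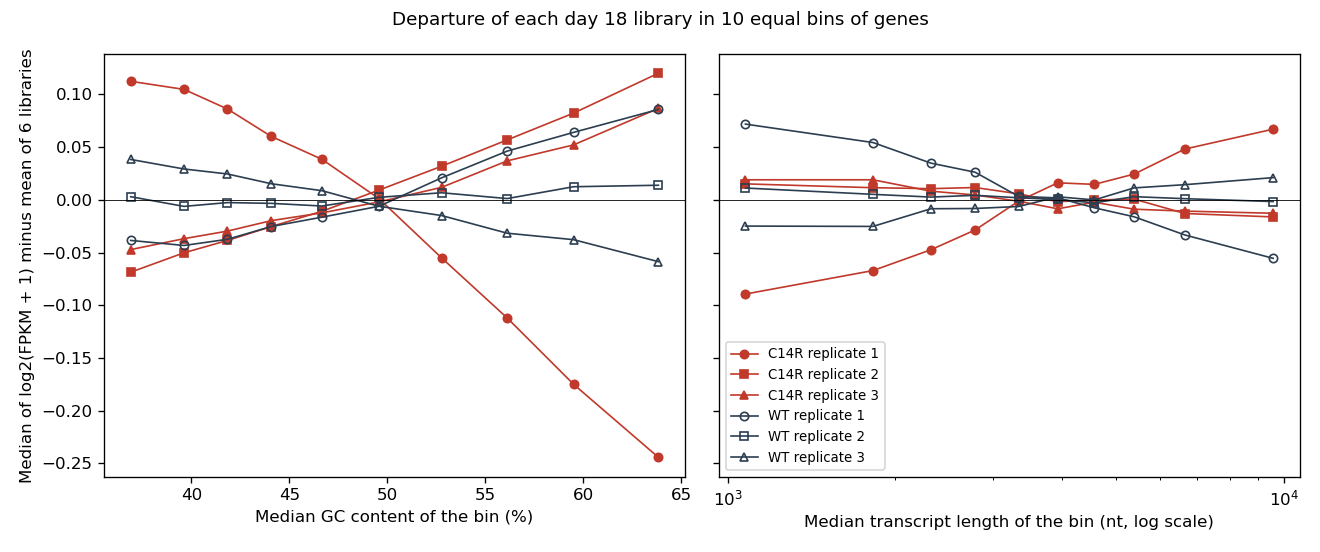
Median over genes of log2(FPKM + 1) minus the mean of the 6 day 18 libraries, in 10 equal bins of genes by GC content in percent (left) or transcript length in nucleotides on a log axis (right). Red filled symbols are C14R and dark open symbols WT. C14R replicate 1 falls from 0.11 in the bin of lowest GC content to -0.24 in the highest, and no other library departs as far.

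Markers of the cell lineage were measured first. Of 12 neuronal genes, 11 reached 1 FPKM, and RBFOX3, a marker of mature neurons, stayed below it. The noradrenergic regulators HAND2 and GATA3 lay between 68.2 and 307 FPKM. Of the 5 Schwann cell markers, SOX10, which defines these cells, stayed below 1 FPKM in every library. The 13 mesenchymal markers summed to 89.9 to 100.5 FPKM in C14R and 99.6 to 100.9 in WT, and PRRX1, YAP1, COL1A2, ANXA1 and THBS1 stayed below 1 FPKM in every library. The 5 proliferation markers (MKI67, TOP2A, CCNB1, CDK1 and AURKA) summed to 120.7, 97.2 and 105.5 FPKM in C14R replicates 1, 2 and 3, and to between 93.1 and 98.8 in WT. In bulk RNA, fewer cells of a type and less RNA per cell cannot be told apart.

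Few genes separated C14R from WT. With limma over all 18 libraries and an adjusted p under 0.05, 5 genes changed (0.0363% of those tested): MYBL2 and HJURP rose, and ZNHIT3, DDIT3 and SNORA74B fell. At an unadjusted p under 0.05, 739 genes were higher (5.36%) and 796 lower (5.77%). Without C14R replicate 1, 7 genes passed (0.0508%): ZNHIT3, DDIT3, SNORA74B and MYBL2 remained, SLC6A2 was added among the higher and CCT6P1 and PHOSPHO2-KLHL23 among the lower, and HJURP was lost (adjusted p = 0.073). For 12780 genes (92.7%) the 95% confidence interval of the log2 change lay within 0.5 of 0 in both directions, and for 13685 (99.3%) it lay within 1. The count was moved by other choices, to 205 genes with limma's array weights, which gave C14R replicate 1 the lowest weight of the 6 libraries (0.161), to 126 without C14R replicate 2, and to 2 in a fit of the 6 day 18 libraries alone.

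**Figure D2:**
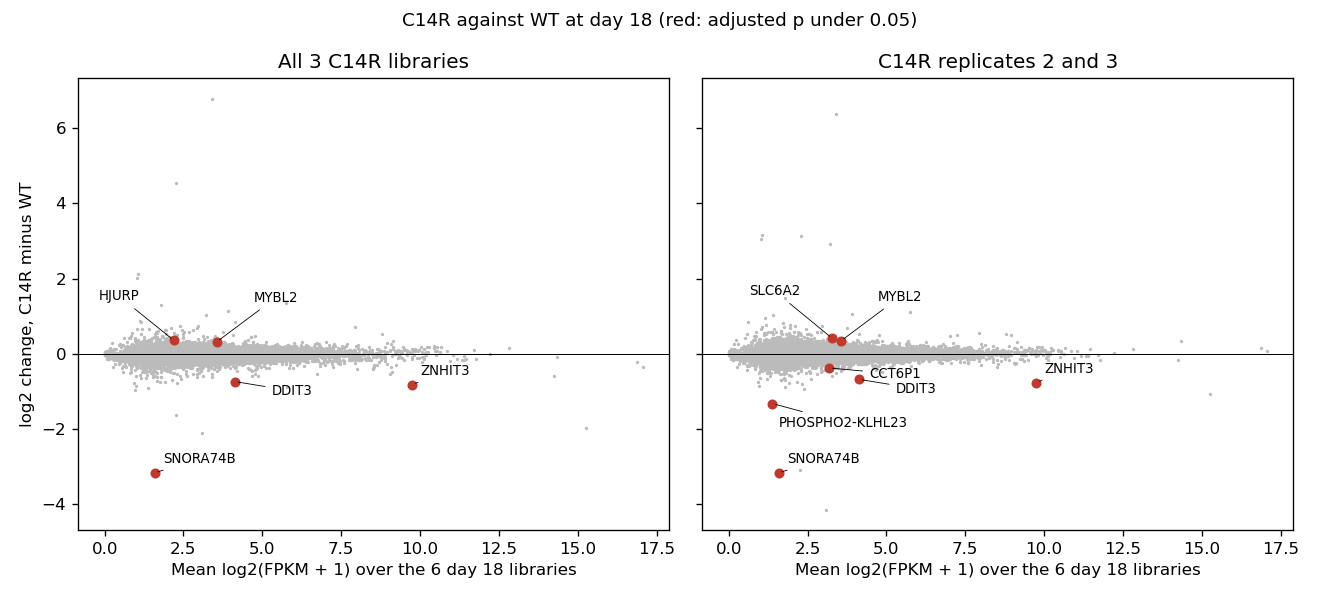
Log2 change, C14R minus WT at day 18, against the mean log2(FPKM + 1) of the 6 libraries, with all C14R libraries (left) and with C14R replicates 2 and 3 (right). Grey points are the 13785 genes tested and red points those with an adjusted p under 0.05, 5 on the left and 7 on the right.

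The substituted residue lies near the start of the protein. Codon 14 is shown in capitals within codons 1 to 20 of the reference coding sequence, which lie in exon 1 (GRCh38, chr17:36486700-36486759, plus strand) and are the same in both annotated coding transcripts that start there:
ZNHIT3: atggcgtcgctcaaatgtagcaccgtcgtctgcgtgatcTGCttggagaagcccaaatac
The gene spans chr17:36486629-36499310, and the FPKM adds transcripts of the gene and of any construct sequence counted with it. ZNHIT3 stood at 599.7, 756 and 604 FPKM in C14R replicates 1, 2 and 3, and at 1193, 1164 and 1103 in WT. All C14R libraries lay below all WT libraries, with C14R replicate 2 nearest to them. The mean was 653 ± 88.9 FPKM in C14R and 1153 ± 46.1 in WT (SD, n = 3 each), or 56.6% of the WT mean. ZNHIT3 fell by 0.83 on the log2 scale (SE 0.07, limma adjusted p = 9.2e-06), and by 0.77 without C14R replicate 1 (adjusted p = 4.9e-05). With only the 6 libraries in the fit the adjusted p was 0.18, and an exact two-sided permutation test of the 6 libraries gave p = 0.1, the smallest that its 20 relabelings allow. The level in the deletion libraries of day 18 was lower still, at 298, 313 and 294 FPKM. At day 0 the C14R libraries held 419, 432 and 421 FPKM and the WT libraries 542, 541 and 531, so the groups did not overlap at either day.

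DDIT3 had the largest fall among the other protein-coding genes that passed. It encodes CHOP, a transcription factor induced by the integrated stress response, in which phosphorylation of the initiation factor eIF2 raises translation of ATF4 and, through it, a set of amino acid and stress genes. DDIT3 (chr12:57516588-57521737, minus strand) was at 11.5, 14.3 and 12.1 FPKM in C14R and at 24.8, 20.5 and 20.2 in WT. The highest C14R library lay below the lowest WT library. The means were 12.6 ± 1.46 and 21.9 ± 2.59 FPKM (SD, n = 3), and DDIT3 fell by 0.74 on the log2 scale (SE 0.09, limma adjusted p = 0.0011), by 0.68 without C14R replicate 1 (adjusted p = 0.011). The adjusted p was 0.34 with only the 6 libraries in the fit. Deletion libraries at day 18 held 15.8, 18.2 and 16.4 FPKM, between C14R and WT. DDIT3 overlaps MARS and MBD6 on the opposite strand, and MARS, an aminoacyl-tRNA synthetase gene, was at 37.8, 48.5 and 47.5 FPKM in C14R and 49.4, 45.9 and 46.8 in WT (adjusted p = 0.67).

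**Figure D3:**
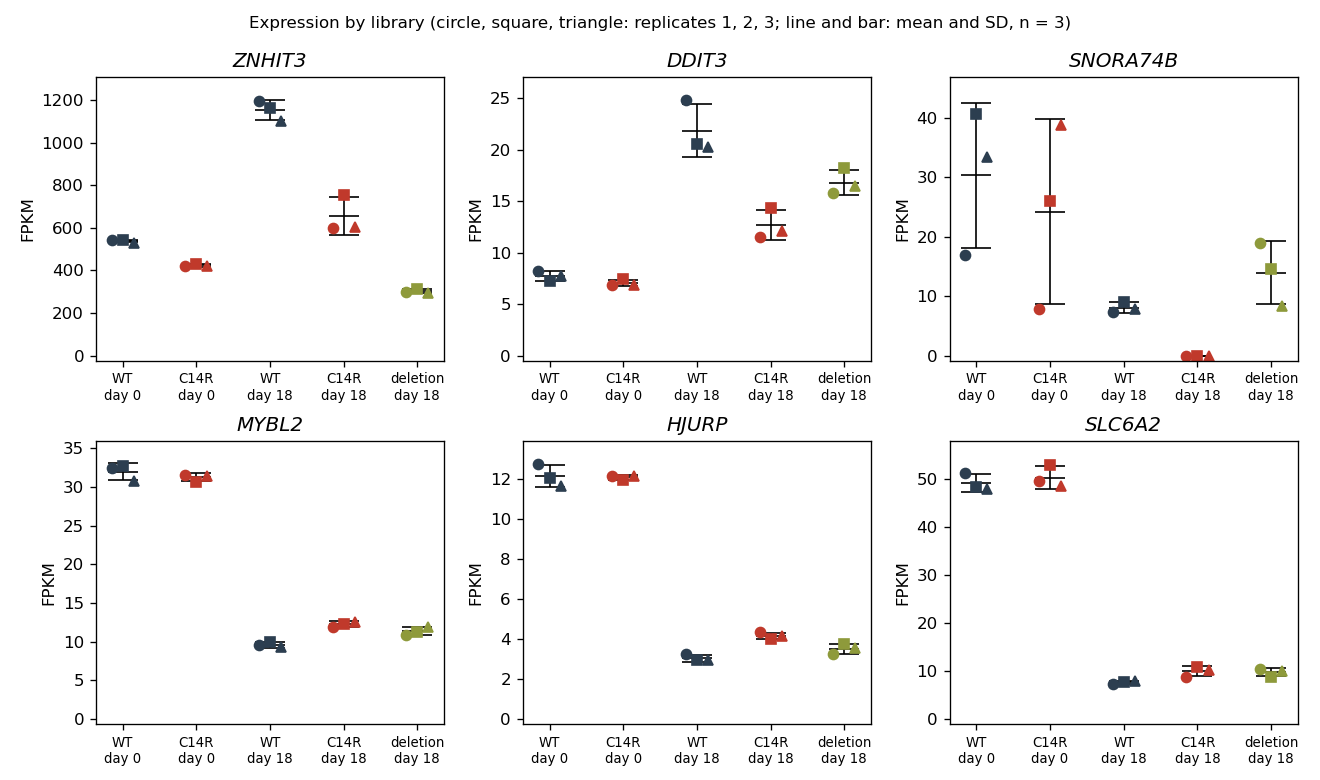
FPKM of ZNHIT3, DDIT3, SNORA74B, MYBL2, HJURP and SLC6A2 in each WT and C14R library at day 0 and day 18 and in the deletion libraries at day 18. Symbols mark replicates, and the line and bar give the mean and SD (n = 3). At day 18 all C14R libraries lie on one side of all WT libraries for each of the 6 genes. The genes shown were chosen because they passed the test with or without C14R replicate 1, so their separation follows largely from that choice.

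Other genes of the integrated stress response lay mostly below WT, with smaller differences. Of 49 members tested, 1 changed (DDIT3), 37 had a negative log2 change, and the median was -0.08, against -0.0017 over all genes tested. At an unadjusted p under 0.05, 10 members were lower (20.4%, against 5.77% of all genes tested) and 1 higher (2.04%, against 5.36%). For 8 members all C14R libraries lay below all WT libraries (16.3%, against 5.64%). The median moved to -0.04 without C14R replicate 1, with 9 members lower at that threshold (18.4%, against 6.30% of all genes tested). The members past the adjusted threshold were 1 lower without C14R replicate 1 and after removal of the GC trend, 2 lower with array weights, and 5 lower and 1 higher without C14R replicate 2. Over all genes tested, removal of the GC trend called 0.0943% lower and array weights 0.74% lower. The fit without C14R replicate 2 called 0.392% of all genes lower and 0.522% higher. SLC3A2, the heavy chain of amino acid exchangers, was at 16.5, 23.8 and 21.8 FPKM in C14R and 30.4, 27.8 and 26.3 in WT (log2 change -0.44, SE 0.12, limma adjusted p = 0.16). MTHFD2, an enzyme of mitochondrial folate metabolism, was at 20.1, 20.2 and 20.5 against 23.0, 22.3 and 22.3 FPKM (log2 change -0.15, SE 0.04, adjusted p = 0.16). Neither pair of groups overlapped, and neither gene passed the test. ATF4 itself, whose control is mainly at translation, was at 68.4, 78.8 and 75.6 FPKM in C14R and 69.4, 71.5 and 77.3 in WT, with overlapping groups (adjusted p = 0.89). CHAC1 and GDF15, both stress-induced, were low in C14R replicate 1 only, at 1.13 and 7.18 FPKM, and within or beside the WT range in replicates 2 and 3.

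Chaperones of the endoplasmic reticulum, the targets of the related unfolded protein response, lay below WT in most members as well. Of 25 members tested, 0 passed the threshold of limma's adjusted p, 22 had a negative log2 change, 7 were lower at an unadjusted p under 0.05 (28.0%, against 5.77% of all genes tested) and 0 higher, and the median was -0.09 with C14R replicate 1 and -0.08 without it. HSPA5, the chaperone BiP, was at 64.0, 70.4 and 63.1 FPKM in C14R and 72.4, 74.4 and 79.7 in WT (log2 change -0.20, adjusted p = 0.16). PDIA4, a protein disulfide isomerase, was at 57.8, 70.9 and 65.0 against 79.3, 76.5 and 73.5 FPKM (log2 change -0.24, adjusted p = 0.13). The libraries of the groups did not overlap for either gene. Cytosolic heat shock genes had a median of 0.03 and aminoacyl-tRNA synthetases of -0.03, with 0 members past the adjusted threshold in either list. At an unadjusted p under 0.05, 1 heat shock gene was higher (5.26%, against 5.36% of all genes tested) and 0 lower. Among the synthetases 1 was higher (5.0%) and 5 lower (25.0%, against 5.77%).

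SNORA74B, a box H/ACA snoRNA, was the only gene listed at 0 in all C14R libraries and at 1 FPKM or more in all WT libraries. H/ACA snoRNAs fold into a pair of hairpins and end in an ACA box, shown in capitals. The gene lies in an intron of ATP6V0E1 on chromosome 5 of GRCh38, plus strand (chr5:173020728-173020928):
SNORA74B: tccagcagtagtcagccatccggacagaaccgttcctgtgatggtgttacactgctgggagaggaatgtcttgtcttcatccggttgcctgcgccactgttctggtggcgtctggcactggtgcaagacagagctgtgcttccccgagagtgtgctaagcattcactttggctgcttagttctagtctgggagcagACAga
SNORA74B was listed at 7.29, 9.03 and 7.83 FPKM in the WT libraries of day 18 (limma adjusted p = 0.0035, and 0.021 without C14R replicate 1). The deletion libraries of day 18 held 18.9, 14.6 and 8.31 FPKM, and at day 0 values ran from 7.86 to 38.7 in C14R and from 16.9 to 40.6 in WT. SNORA74A, a related copy with which reads could be divided, was at 109, 146 and 267 FPKM in C14R and at 127, 147 and 145 in WT, and the groups overlapped (adjusted p = 0.82). The host ATP6V0E1, a proton pump subunit, was at 70.1, 72.1 and 63.7 FPKM in C14R and 71.3, 70.1 and 73.1 in WT (adjusted p = 0.77). A value listed at 0 in this table can be a failed estimate: RNU4-1 and RNU5A-1, spliceosomal RNAs that every cell uses, were listed at 0 in all 18 libraries.

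The table says little about snoRNAs as a class. Of 269 box C/D snoRNA symbols, 263 were listed at 0 in all 18 libraries and 5 were tested, and of 107 box H/ACA symbols, 99 were listed at 0 and 8 were tested. None of the 5 box C/D snoRNAs passed the threshold of limma's adjusted p, and 0 were at an unadjusted p under 0.05. SNORD3A, the U3 snoRNA of early ribosomal RNA processing, was at 5591, 29941 and 47245 FPKM in C14R and 149397, 63498 and 51130.0 in WT. All C14R libraries lay below all WT libraries, but the spread within each group was wide (adjusted p = 0.58). SNORD17 was at 413, 677 and 596 FPKM against 505, 495 and 360, with overlapping groups (log2 change 0.30, adjusted p = 0.49). Without C14R replicate 1 its log2 change was 0.50 (SE 0.12, adjusted p = 0.16), both remaining C14R libraries lay above all WT libraries, as for 13.2% of all genes tested, and it was the 1 box C/D snoRNA at an unadjusted p under 0.05 (20.0%, against 6.13% of all genes tested higher). Small Cajal body RNAs, which guide modification of spliceosomal RNAs, had a median log2 change of -0.14 over 12 tested members, with 5 lower (41.7%, against 5.77% of all genes tested) and 0 higher at an unadjusted p under 0.05 and 0 past the adjusted threshold. SCARNA9 was at 309, 304 and 337 FPKM in C14R and 406, 393 and 440 in WT, without overlap (log2 change -0.38, SE 0.10, adjusted p = 0.14). Of the 12 members, 1 had all C14R libraries below all WT libraries (8.33%, against 5.64% of all genes tested) and 1 had all above (8.33%, against 5.44%). In C14R replicate 1 the scaRNA list had a median of -0.52 against the WT mean, beside -0.15 and -0.02 in replicates 2 and 3. Without replicate 1 the median log2 change was -0.12, with 3 lower (25.0%, against 6.30%) and 1 higher (8.33%, against 6.13%) at an unadjusted p under 0.05.

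Among the genes for snoRNP proteins, none but ZNHIT3 itself passed the test. The box C/D core and assembly list, which includes NOP56, NOP58, fibrillarin and the R2TP subunits, had a median log2 change of -0.02 over 22 members. Of these, 0 passed the adjusted threshold. At an unadjusted p under 0.05, 3 were higher (13.6%, against 5.36% of all genes tested) and 0 lower. NOLC1, a nucleolar chaperone of snoRNPs, was at 61.7, 59.8 and 56.6 FPKM in C14R and 52.7, 55.5 and 53.6 in WT (log2 change 0.14, adjusted p = 0.16). The 8 box H/ACA proteins and assembly factors had a median of -0.0048. Of the 5 other HIT zinc-finger genes, ZNHIT6, which acts in the same assembly pathway, was at 6.29, 5.84 and 5.29 FPKM against 5.93, 5.998 and 6.05 (adjusted p = 0.87).

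Host genes of the SNHG family, noncoding transcripts with snoRNAs in their introns, lay below WT in 15 of 17 tested members. Their median log2 change was -0.16, and -0.12 without C14R replicate 1, and 0 passed the adjusted threshold, with 5 lower (29.4%, against 5.77% of all genes tested) and 0 higher at an unadjusted p under 0.05. SNHG12 was at 4.67, 3.62 and 3.60 FPKM in C14R and 7.53, 4.24 and 8.08 in WT, and the highest C14R library overlapped the lowest WT library (log2 change -0.58, SE 0.17, adjusted p = 0.20). SNHG8 was at 339, 317 and 286 FPKM against 368, 338 and 343, again with an overlap of the extremes (adjusted p = 0.38). Host genes outside that family had a median of 0.04 over 35 members. At an unadjusted p under 0.05, 3 were higher (8.57%, against 5.36% of all genes tested) and 3 lower (8.57%, against 5.77%). Among them EEF2, the ribosomal translocation factor, was at 487, 512 and 521 FPKM in C14R and 478, 450 and 421 in WT, without overlap (log2 change 0.17, SE 0.04, adjusted p = 0.14).

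CCT6P1, a transcribed pseudogene of the chaperonin subunit CCT6 that carries SNORA22 and SNORA15B-2 within it (chr7:65751142-65763354, plus strand), passed when C14R replicate 1 was left out. It was at 7.99, 6.75 and 6.83 FPKM in C14R and 9.10, 8.91 and 9.42 in WT, and the groups did not overlap with or without replicate 1. The log2 change was -0.31 (SE 0.07, limma adjusted p = 0.10) with all libraries and -0.38 without replicate 1 (adjusted p = 0.036). Reads from the parent gene could be counted there. PHOSPHO2-KLHL23, a read-through transcript, was at 2.43, 0.255 and 0.624 FPKM in C14R and 1.90, 2.26 and 3.88 in WT, so replicate 1 lay within the WT range and the others below it (adjusted p = 0.22, and 0.046 without replicate 1). It shares exons with PHOSPHO2 and KLHL23, so its value is uncertain.

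MYBL2 and HJURP, the genes that rose, both belong to the cell cycle. MYBL2 encodes B-MYB, a transcription factor that joins the MuvB core to switch on mitotic genes. HJURP encodes the chaperone that deposits the centromeric histone CENP-A. The bases before the RefSeq start sites of both genes (GRCh38.p14) are shown because cell-cycle genes share short promoter motifs. Each RefSeq start lies inside the span of its gene given below, which comes from GENCODE. Some of the bases shown therefore fall within that span. In MYBL2 (chr20:43666864-43667113, plus strand) the capitals mark an E2F core (GGCGGGA) 39 bases before the start. In HJURP (chr2:233854536-233854785, minus strand) they mark a cell-cycle genes homology region (CHR, TTTGAA) 111 bases before the start and 4 CCAAT boxes on either strand. The full HJURP window also held an E2F core 8 bases after the start, outside the bases shown:
MYBL2: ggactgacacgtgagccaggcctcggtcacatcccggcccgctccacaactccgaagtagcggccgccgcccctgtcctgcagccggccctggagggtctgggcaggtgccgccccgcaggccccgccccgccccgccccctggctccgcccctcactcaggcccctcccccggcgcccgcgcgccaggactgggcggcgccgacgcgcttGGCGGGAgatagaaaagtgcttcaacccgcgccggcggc
HJURP: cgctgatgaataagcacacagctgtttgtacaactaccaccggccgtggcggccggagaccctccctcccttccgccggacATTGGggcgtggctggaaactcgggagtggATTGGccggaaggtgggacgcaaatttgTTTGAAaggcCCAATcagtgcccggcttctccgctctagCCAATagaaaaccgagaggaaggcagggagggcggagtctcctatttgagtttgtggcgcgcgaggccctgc
MYBL2 (chr20:43667019-43716496) was at 11.9, 12.3 and 12.6 FPKM in C14R and at 9.52, 10.0 and 9.27 in WT. HJURP (chr2:233833416-233854566) was at 4.34, 4.03 and 4.14 FPKM in C14R and at 3.24, 2.94 and 2.95 in WT. For both genes every C14R library lay above every WT library. MYBL2 rose 1.28-fold (log2 change 0.32, SE 0.05, limma adjusted p = 0.012) and by 0.34 on the log2 scale without C14R replicate 1 (adjusted p = 0.018). HJURP rose 1.37-fold (log2 change 0.35, SE 0.06, limma adjusted p = 0.031). HJURP missed the threshold in 4 of the 6 fits that left out 1 library (adjusted p of 0.073 without C14R replicate 1, 0.081 without C14R replicate 3, 0.16 without WT replicate 2 and 0.13 without WT replicate 3), and MYBL2 in 3 (0.068 without C14R replicate 3, 0.057 without WT replicate 1 and 0.083 without WT replicate 3). With only the 6 libraries in the fit the adjusted p was 0.88 for MYBL2 and 0.93 for HJURP. At day 0, before differentiation, MYBL2 was at 31.6, 30.6 and 31.4 FPKM in C14R and 32.5, 32.7 and 30.8 in WT, and HJURP at 12.2, 11.95 and 12.2 against 12.8, 12.1 and 11.7, with overlapping groups. Deletion libraries of day 18 held 10.9, 11.3 and 11.9 FPKM of MYBL2 and 3.26, 3.76 and 3.54 of HJURP.

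Genes of mitosis and the kinetochore lay above WT as a list. Of 84 tested members, 74 had a positive log2 change (88.1%, against 49.1% of all genes tested), and the median was 0.14. At an unadjusted p under 0.05, 28 were higher (33.3%, against 5.36% of all genes tested) and 2 lower, and in 22 every C14R library lay above every WT library (26.2%, against 5.44%). HJURP was the member past the adjusted threshold. NUF2, a subunit of the NDC80 complex that grips microtubules, was at 15.4, 12.9 and 15.0 FPKM in C14R and 11.7, 11.1 and 11.4 in WT (log2 change 0.31, SE 0.06, limma adjusted p = 0.10). CENPF, a large kinetochore protein, was at 33.4, 25.2 and 26.8 against 21.1, 22.9 and 24.3 FPKM (log2 change 0.30, SE 0.07, adjusted p = 0.13). CENPN, which binds CENP-A nucleosomes, was at 6.12, 5.21 and 5.99 against 4.73, 4.49 and 4.25 FPKM (log2 change 0.30, SE 0.07, adjusted p = 0.13). The groups did not overlap for any of these 3 genes, which did not pass the test. SPC24, another NDC80 subunit, lay the other way, at 2.62, 2.60 and 2.53 FPKM in C14R and 2.99, 5.79 and 3.18 in WT (adjusted p = 0.26).

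The size of this difference depended on the library. Against the WT mean, the median of the mitosis list was 0.30 in C14R replicate 1, 0.03 in replicate 2 and 0.12 in replicate 3, while the WT libraries ran from -0.0059 to 0.02. Without C14R replicate 1 the median log2 change was 0.07, 62 of 84 members were positive (73.8%, against 50.9% of all genes tested), and 22 were higher at an unadjusted p under 0.05 (26.2%, against 6.13%). With each library's GC trend removed the median was 0.14, 40 members were higher at that threshold (47.6%, against 8.26%) and 2 lower (2.38%, against 6.25%). After that removal 3 members passed the adjusted threshold (HJURP, NUF2 and CENPF), all higher, beside 0.152% of all genes called higher and 0.0943% called lower. Without C14R replicate 1, 0 members of the mitosis list passed. With array weights 6 passed as higher and 1 as lower, beside 0.747% of all genes called higher and 0.74% called lower. Without C14R replicate 2 it was 7 higher and 0 lower, beside 0.522% and 0.392% of all genes. CCNB1 and CDK1, the mitotic cyclin and its kinase, did not separate: CCNB1 was at 12.7, 12.3 and 12.1 FPKM in C14R against 11.9, 12.4 and 10.8 in WT (adjusted p = 0.66).

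DNA replication and nucleotide synthesis genes had a similar median. Of 65 tested members, 54 had a positive log2 change (83.1%), the median was 0.13, and 30 were higher (46.2%, against 5.36% of all genes tested) and 0 lower at an unadjusted p under 0.05. In 22 every C14R library lay above every WT library (33.8%), and 0 passed the adjusted threshold in the fit of all libraries. CHAF1A, a subunit of the histone chaperone CAF-1, was at 7.30, 6.43 and 6.54 FPKM in C14R and 5.52, 5.13 and 5.55 in WT (log2 change 0.28, SE 0.06, limma adjusted p = 0.10). RRM2, the regulated subunit of ribonucleotide reductase, was at 14.8, 11.8 and 12.6 against 10.3, 10.9 and 10.2 FPKM (log2 change 0.29, SE 0.06, adjusted p = 0.10). MCM2, a subunit of the replicative helicase, was at 7.11, 7.83 and 8.502 against 6.76, 6.42 and 5.24 FPKM (log2 change 0.31, SE 0.07, adjusted p = 0.13). Each of these 3 genes was without overlap, and for MCM2 the highest value was in C14R replicate 3. The list's medians against the WT mean were 0.22, 0.08 and 0.12 in C14R replicates 1, 2 and 3, each above the WT libraries (-0.04 to 0.0083). Without C14R replicate 1 the median log2 change was 0.10 with 19 members higher (29.2%) and 1 lower. The number of members past the adjusted threshold was 0 without C14R replicate 1, 2 after removal of the GC trend, 6 with array weights and 8 without C14R replicate 2, all higher. Over all genes tested, array weights called 0.747% higher and 0.74% lower, and the fit without C14R replicate 2 called 0.522% higher and 0.392% lower. At day 0 the list's median difference between C14R and WT was 0.01, and that of the mitosis list was 0.0087.

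**Figure D4:**
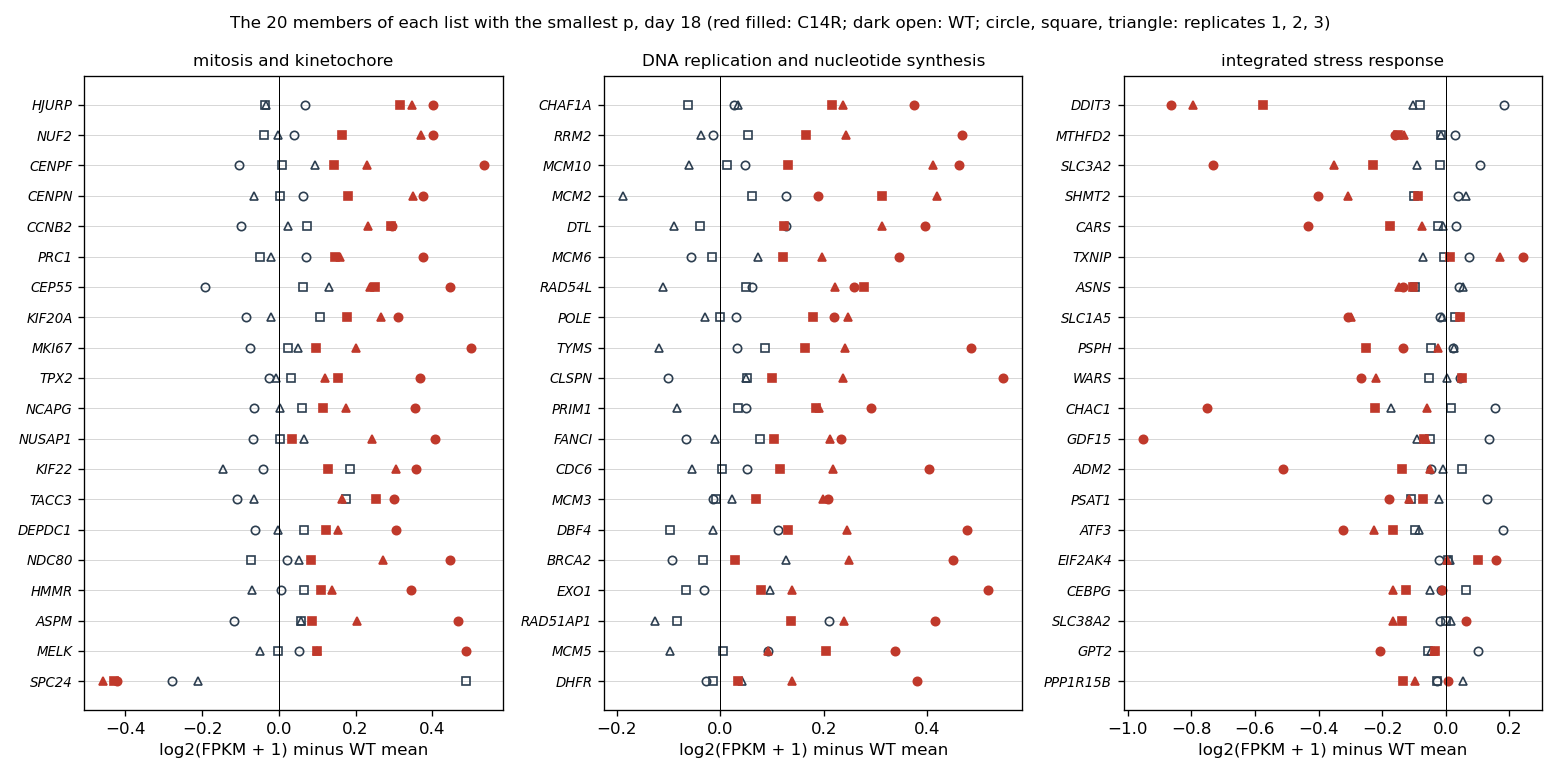
Log2(FPKM + 1) minus the WT mean in each day 18 library, for the 20 members with the smallest p of the mitosis and kinetochore, DNA replication and nucleotide synthesis, and integrated stress response lists. Red filled symbols are C14R and dark open symbols WT. The members shown were chosen by p, so their distance from the WT libraries follows from that choice; C14R replicate 1 is often the farthest out.

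The promoters of these lists differ in the motifs they hold. Promoter windows of 300 bases (250 before to 50 after the RefSeq start) were matched for 10152 of the 13785 genes tested. Both strands were searched for an E2F core, spelled GGCGGGA or alternatively TTGGCGC, for a CHR, spelled TTTGAA or alternatively TTCGAA, for a CCAAT box by those letters, and for the amino acid response motif of ATF4 and C/EBP factors (TGATGNAA). A CCAAT box read on the other strand can overlap TTGGCGC. An E2F core was found in 68.5% of the replication list (37 of 54) and 39.7% of the mitosis list (27 of 68), against 28.9% of all genes tested. A CHR was found in 72.1% of the mitosis list (49 of 68) and 7.4% of the replication list (4 of 54), against 11.2%. CCAAT boxes stood in 76.5% and 57.4% of these lists, against 36.9%. The response motif of ATF4 was found in 15.4% of the stress response list (6 of 39), against 1.5%. Bases outside the windows were not searched, so the motif's absence from the window of DDIT3, which fell, does not show that the gene lacks it. That window held an E2F core 59 bases before the start and 2 CCAAT boxes, so these motifs were also present in a gene that fell. A match is a sequence of letters and not a shown binding site.

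Regulators of the E2F, MYB and FOXM1 network were less uniform. Of 33 tested members, 19 were positive with a median of 0.04, and 7 were higher (21.2%, against 5.36% of all genes tested) and 2 lower (6.06%, against 5.77%) at an unadjusted p under 0.05. Without C14R replicate 1, 2 were higher (6.06%, against 6.13% of all genes tested) and 1 lower (3.03%, against 6.30%), so the count of higher members rested on that library. FOXM1, which activates late cell-cycle genes, was at 9.51, 8.48 and 8.26 FPKM in C14R and 8.15, 6.95 and 6.45 in WT (log2 change 0.26, SE 0.07, limma adjusted p = 0.17). E2F3 lay the other way, at 20.7, 18.7 and 20.1 against 21.7, 21.0 and 22.5 FPKM (log2 change -0.12, adjusted p = 0.30). The groups did not overlap for either gene. Replication-dependent histones had a median of 0.03 over 60 members. At an unadjusted p under 0.05, 8 were higher (13.3%, against 5.36% of all genes tested) and 9 lower (15.0%, against 5.77%). HIST1H1B, a linker histone, was at 181, 159 and 167 FPKM in C14R and 154, 141 and 129 in WT, and HIST1H4B was at 294, 331 and 364 against 502, 407 and 366 (adjusted p = 0.12 and 0.15). Targets of p53, which include brakes on the cell cycle, had a median of -0.05 over 29 members. Of these, 6 were lower (20.7%, against 5.77% of all genes tested) and 0 higher at an unadjusted p under 0.05. The p53 list also lay below WT at day 0, with a median difference of -0.07 and 3 of 29 members positive.

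**Figure D5:**
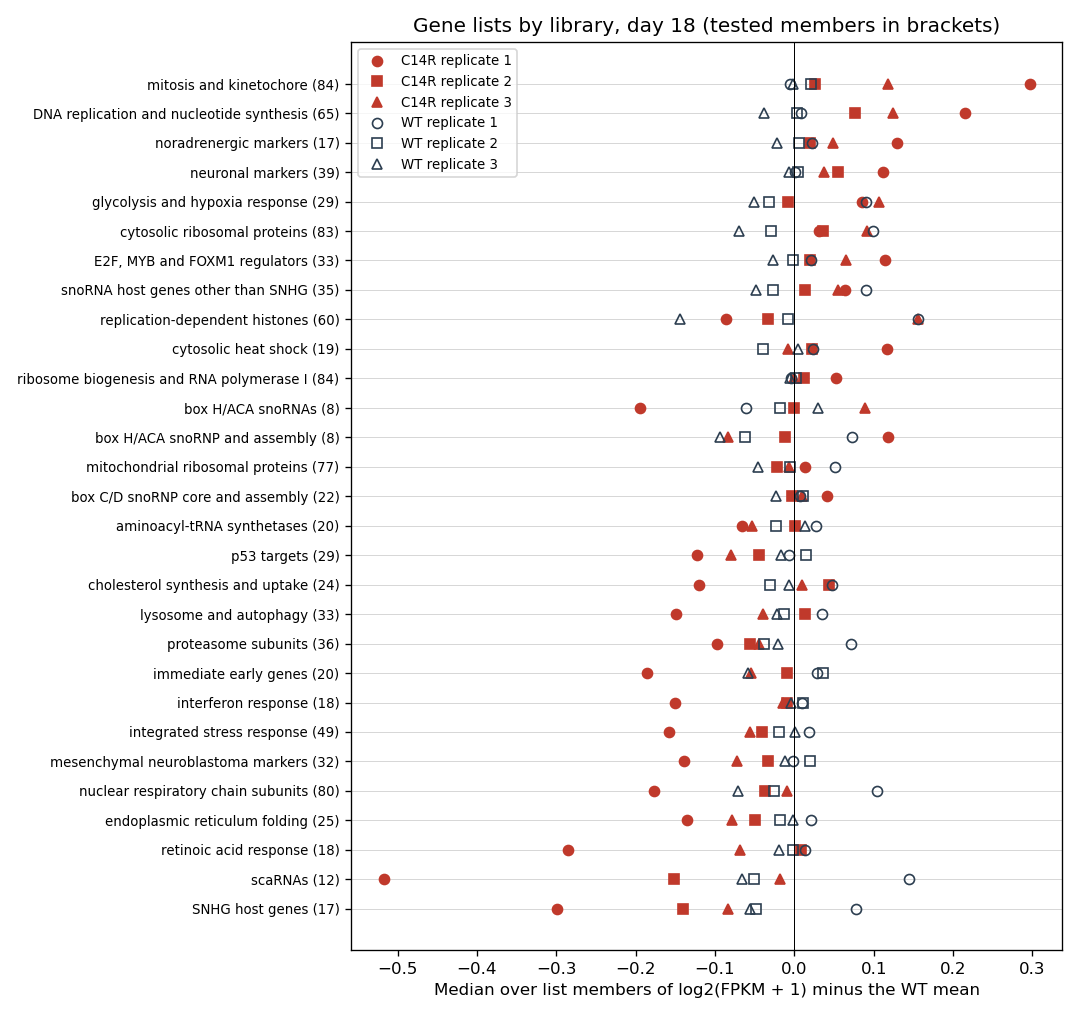
Median over the tested members of each gene list of log2(FPKM + 1) minus the WT mean, for each day 18 library, for lists with at least 8 tested members (number in brackets). Red filled symbols are C14R and dark open symbols WT. The mitosis and replication lists stand at the top (C14R from 0.03 to 0.30 and from 0.08 to 0.22), and C14R replicate 1 is often the farthest from WT.

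Neuronal identity genes were measured at similar or slightly higher levels in C14R. Of 39 tested neuronal markers, 28 were positive with a median of 0.06, and 9 were higher (23.1%, against 5.36% of all genes tested) and 1 lower (2.56%, against 5.77%) at an unadjusted p under 0.05, with 0 past the adjusted threshold. STMN4, a neuronal regulator of microtubules, was at 50.9, 45.9 and 47.9 FPKM in C14R and 43.6, 42.1 and 40.5 in WT (log2 change 0.19, SE 0.05, limma adjusted p = 0.13). NEFL, the light neurofilament, was at 229, 223 and 219 against 209, 209 and 207 FPKM (log2 change 0.10, SE 0.03, adjusted p = 0.18). ELAVL4, a neuronal RNA-binding protein, lay the other way at 212, 215 and 197 against 220.1, 223 and 237 FPKM (log2 change -0.13, adjusted p = 0.30). None of these 3 genes overlapped between groups, and without C14R replicate 1 the list's median was 0.04 with 29 of 39 positive. Noradrenergic markers had a median of 0.07 over 17 members, with 6 higher (35.3%, against 5.36%) and 0 lower.

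SLC6A2, the noradrenaline transporter (chr16:55655604-55706192, plus strand), was the noradrenergic gene that passed without C14R replicate 1. It was at 8.73, 10.8 and 10.3 FPKM in C14R and 7.36, 7.77 and 7.93 in WT, and C14R replicate 1 was the closest to WT. The log2 change was 0.33 (SE 0.07, limma adjusted p = 0.10) with all libraries and 0.41 (SE 0.06, adjusted p = 0.021) without replicate 1. Deletion libraries of day 18 were at 10.5, 8.77 and 10.0 FPKM, and at day 0 both C14R and WT libraries held between 47.8 and 52.9. DBH, which makes noradrenaline, was at 288, 465 and 412 FPKM against 476, 446 and 412, with C14R replicate 1 below all others (adjusted p = 0.52).

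Genes that mark the substrate-adherent, mesenchymal state of neuroblastoma lay slightly below WT. Of 32 tested members, 23 were negative with a median of -0.08, and 8 were lower (25.0%, against 5.77% of all genes tested) and 1 higher at an unadjusted p under 0.05. The median was -0.02 without C14R replicate 1, with 8 lower (25.0%, against 6.30%) and 4 higher (12.5%, against 6.13%). At day 0 the list's median difference between C14R and WT was -0.06, with 7 of 32 members positive. COL3A1, a fibrillar collagen, was at 17.04, 25.3 and 20.4 FPKM in C14R and 27.2, 30.3 and 28.4 in WT (log2 change -0.45, SE 0.10, limma adjusted p = 0.12). WWTR1, the transcriptional coactivator TAZ, was at 1.79, 1.53 and 1.66 against 2.09, 2.36 and 2.28 FPKM (log2 change -0.29, SE 0.08, adjusted p = 0.16). The groups did not overlap for either gene. VIM, among the mesenchymal markers measured first, lay the other way without overlap, at 54.3, 52.7 and 55.2 FPKM in C14R and 50.1, 47.8 and 50.0 in WT. Retinoic acid response genes had a median of -0.11 over 18 members, which was -0.03 without C14R replicate 1. CYP26A1, the retinoic acid hydroxylase, was at 76.4, 119 and 107 FPKM in C14R and 134, 120 and 122 in WT, with C14R replicate 1 far below the rest (adjusted p = 0.26).

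Lists of protein synthesis and turnover had small medians. Cytosolic ribosomal proteins had a median of 0.05 over 83 members, with 57 positive (68.7%, against 49.1% of all genes tested), 22 higher (26.5%, against 5.36%) and 4 lower (4.82%, against 5.77%) at an unadjusted p under 0.05 and 0 past the adjusted threshold. RPS4X was at 1316, 1215 and 1241 FPKM in C14R and 1147, 1098 and 1090.2 in WT (log2 change 0.18, SE 0.04, limma adjusted p = 0.13). Ribosome biogenesis factors, the proteins that would act beside snoRNPs, had a median of 0.02 over 84 members. Of these, 4 were higher (4.76%, against 5.36%) and 6 lower (7.14%, against 5.77%), near the shares of all genes tested. CIRH1A, a subunit of the complex that processes the 18S precursor, was at 19.0, 20.9 and 19.7 FPKM in C14R and 24.4, 23.6 and 22.4 in WT, without overlap (log2 change -0.23, SE 0.05, adjusted p = 0.10). POLR1E, a subunit of RNA polymerase I, lay the other way at 12.5, 14.1 and 13.4 against 11.5, 11.4 and 10.3 FPKM (log2 change 0.25, adjusted p = 0.16). Proteasome subunits had a median of -0.07 over 36 members, 30 of them negative, with 10 lower (27.8%, against 5.77% of all genes tested) and 0 higher. WT replicate 1 was the highest library for the proteasome and respiratory chain lists, at 0.07 and 0.10 above the WT mean. For cytosolic ribosomal proteins the medians against the WT mean were 0.03, 0.04 and 0.09 in C14R replicates 1, 2 and 3. WT replicates 1, 2 and 3 stood at 0.10, -0.03 and -0.07, so WT replicate 1 lay above every C14R library there too. At day 0 the ribosomal protein list had a median difference of -0.03 between C14R and WT, with 11 of 83 members positive.

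Nuclear genes of the respiratory chain gave a list median that depended on C14R replicate 1. The median was -0.08 over 80 members, with 17 lower (21.2%, against 5.77% of all genes tested) and 2 higher at an unadjusted p under 0.05, and was -0.02 with 7 lower (8.75%, against 6.30%) and 3 higher without that library. Mitochondrial ribosomal proteins had a median of -0.01 over 77 members. MRPL52, a protein of the large subunit, was at 7.56, 9.34 and 10.6 FPKM in C14R and 11.7, 12.03 and 11.9 in WT, without overlap (log2 change -0.35, SE 0.08, limma adjusted p = 0.12). Cholesterol synthesis genes had a median of -0.05 that turned to 0.02 without C14R replicate 1. Lysosome and autophagy genes had -0.06 (-0.02 without C14R replicate 1), interferon response genes -0.07 (-0.05) and immediate early genes -0.07 (-0.0086). Glycolysis and hypoxia genes had 0.06 (0.09) and Schwann cell markers 0.0027, and 0 members of any of these lists passed the adjusted threshold. At day 0 the immediate early list also lay below WT, with a median difference of -0.07 and 3 of 20 members positive.

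The genes in which C14R replicate 1 lay farthest outside the other 5 libraries included several short noncoding RNAs. Farthest above were the variant U1 RNAs RNVU1-14 and RNVU1-15, the read-through ARHGAP19-SLIT1, the glutamate receptor gene GRM8, the antisense RNA ALOX12-AS1 and the DNA repair gene NEIL3. RNVU1-14 was at 193, 79.6 and 84.7 FPKM in C14R and listed at 0 in all WT libraries, the only gene listed so while at 1 FPKM or more in every C14R library (adjusted p = 0.16). It was also listed at 0 in 2 of the 3 WT libraries of day 0 and at 105 FPKM in the other. NEIL3 was at 4.79, 2.27 and 2.47 FPKM against 2.63, 2.45 and 2.84. Farthest below were SNORD3A, GNG8, RPPH1, TMEM219, RN7SL1 and REG3G. RPPH1, the RNA of ribonuclease P, was at 9058, 20158 and 22064 FPKM in C14R and 30002, 22832 and 19857 in WT. RN7SL1, the RNA of the signal recognition particle, was at 66353, 164060 and 160466 FPKM against 207098, 143286 and 122637. For both, C14R replicates 2 and 3 lay within the WT range.

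Whether the effect of C14R differed between day 18 and day 0 was tested by the interaction of construct and day. With limma, 0 genes passed an adjusted p under 0.05 (0%), the smallest was 0.27, and 790 of the 13785 genes tested were at an unadjusted p under 0.05. Between C14R and WT at day 0, 0 genes passed. The interaction of ZNHIT3 was -0.48, of DDIT3 -0.63 and of MYBL2 0.36 on the log2 scale (adjusted p = 0.27 for each), so their changes are not shown to differ between the days. Of the other settings tried for the interaction, some called 0 genes and others between 1 and 4, which are given with the processing.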

How the data were processed

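RNA-seq of SH-SY5Y cells was deposited by the authors as a table of FPKM (mapped fragments corrected for the length of the transcript and the size of the library), with 1 value per gene symbol and library. The submitters' processing notes name TopHat2, STAR, Cufflinks 2.2.1 and hg38, without saying which step each was used for. The use of strand was not given in the sources used here, so how reads of overlapping genes or of related copies were assigned is unknown. FPKM hold no counts, so absolute depth is unknown and no counting interval is given. Steps in the low values put the depth of the 6 libraries compared between 85.7% and 100% of the deepest.

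Columns were matched to samples by title, and 0 columns lacked a sample. Tests used log2(FPKM + 1), on which the change of low genes is understated. Genes with a mean of at least 1 FPKM over 18 libraries were tested with limma 3.58.1 in R 4.3.3, with 6 group means, a variance trend and Benjamini-Hochberg adjustment (threshold 0.05), after the procedure had been tested on simulated data. The members and gene lists were chosen with earlier results of these data known. Named genes were ZNHIT3, all genes past the threshold and those past it without C14R replicate 1 whose libraries were fully separated (up to 8 each way). The 6 with that replicate farthest above and below the others were also named. Of the 4 members of each list with the smallest p, and of the tested snoRNAs and scaRNAs, only some are given. Other genes named, among them ATF4, CHAC1, GDF15, SPC24, CCNB1, CDK1, DBH, ELAVL4 and the overlapping or host genes, were chosen after their values were seen. Alternatives were the pseudocount, the filter, scaling, the replicate block, array weights, the libraries in the fit and each library left out. Removal of a lowess trend on GC content (span 0.3, for the 93.8% of tested genes with a GC content) was added after the data had been seen. Positions come from GENCODE release 29 on GRCh38 and promoters from RefSeq on GRCh38.p14, both matched by symbol (90.2% of symbols matched in GENCODE). Some items are not reported here.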

Additional observations from a re-analysis of the deposited data

How the results depend on the processing

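The count of 5 genes between C14R and WT became 10 with no filter on low values, 205 with array weights, 2 in a fit of the 6 day 18 libraries alone and 34 after removal of the GC trend, and ran from 4 to 126 when 1 library was left out (126 without C14R replicate 2). The counts of 10, 205 and 34 held all 5 genes, and the count of 2 held 1 of them. ZNHIT3 kept its direction in every setting and was past the threshold in all but the fit of the 6 libraries alone (log2 change -0.83, adjusted p = 0.18). Without 1 library its change ran from -0.94 to -0.77. The count of 7 with C14R replicates 2 and 3 became 13 with no filter, 2 in a fit of its own libraries alone and 3 after removal of the GC trend, and ran from 2 to 28 when 1 more library was left out (28 without WT replicate 1, 4 without WT replicate 2, and 2 and 3 without C14R replicates 2 and 3). The interaction with day, with 0 genes, gave 1 with a pseudocount of 0.1 (SNORA74B), 4 with array weights (CCT6P1, PHOSPHO2-KLHL23, RNA45S5 and ZNHIT3) and 0 to 2 without 1 library (2 without C14R replicate 1, 1 without C14R replicate 2). List medians of cholesterol synthesis (0.02) and mesenchymal genes (-0.02) moved by more than the spread between libraries without C14R replicate 1. The causes were not tested.

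The replicate numbers did not pair the samples: deviations of same-numbered C14R and WT libraries correlated at -0.36, -0.06 and -0.16. With the number as a block, 7 genes were called with all libraries, 4 without C14R replicate 1 and 1 (NPY) for the interaction, and HJURP had an adjusted p of 0.054.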

Other observations

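Several genes outside the lists lay next in order of p, with limma adjusted p of about 0.10, and were chosen after their values were seen. CXCR4, a chemokine receptor that guides migrating neural crest cells, was at 12.6, 10.5 and 12.3 FPKM in C14R and 8.52, 8.39 and 8.79 in WT (log2 change 0.42, SE 0.08). NPY, the neuropeptide that sympathetic neurons release with noradrenaline, was at 674, 595 and 640 against 549, 460 and 497 FPKM (log2 change 0.34, SE 0.07). VIP, another neuropeptide, lay the other way at 152, 160 and 164 against 202, 182 and 189 FPKM (log2 change -0.26, SE 0.05). For all 3 genes the libraries of the groups did not overlap, with or without C14R replicate 1.

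MGP and CYTL1, also chosen after their values were seen, lay below WT. MGP, which binds calcium in cartilage and vessel matrix, was at 2.50, 4.19 and 3.37 FPKM in C14R and 5.58, 6.88 and 5.13 in WT (log2 change -0.67, SE 0.13, limma adjusted p = 0.10, and 0.15 without C14R replicate 1). CYTL1, a secreted cytokine-like protein, was at 2.84, 3.27 and 2.45 against 5.07, 3.97 and 4.43 FPKM (log2 change -0.51, SE 0.10). The highest C14R library lay below the lowest WT library for both. After removal of each library's GC trend, 34 genes passed the adjusted threshold, 21 higher (0.152% of those tested) and 13 lower (0.0943%). They held the 5 genes called with all libraries, and also SLC6A2, NUF2, CENPF, MCM2, RRM2 and CXCR4 among the higher and CCT6P1, CYTL1, CIRH1A and KRT18 among the lower. With C14R replicate 1 also left out, 3 genes passed after that removal, 0 higher and 3 lower, so none of the higher genes passed there.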
